A study of Rattus norvegicus with 6 samples.

Results

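The secretagogue receptors of pancreatic acinar cells were followed in AR42J, a line of rat cells that was established from a tumour of the exocrine pancreas. They were chosen as a list of 10 receptor genes, Cckar, Cckbr, Chrm3, Chrm1, Sctr, Vipr1, Vipr2, Adcyap1r1, Grpr and Tacr1. Every probe set that the platform annotation gives to one of these symbols alone was kept apart. No probe set among those used had Cckar as its only symbol, so Cckar was not analysed here. The other 9 genes had 15 probe sets of the 15866 analysed, and 8 probe sets of 5 genes were bright enough to be tested. One group of cultures received 100 nM dexamethasone, a synthetic steroid of the glucocorticoid class, for 48 h in medium with 5% serum (n = 3). The other group, the control, was kept in the same medium without it for 48 h (n = 3). All cultures were revived at passage 29 from frozen stocks of 1 tumour line, so they stand for that line and not for acinar cells in the pancreas. Before that, cells had been plated for 24 h in 20% serum. The labels call the cultures independent pairs and speak of 3 experiments, but do not say that equal replicate numbers mark a pair. The fit takes the number as a block. The p-values therefore rest on the spread of treated minus control differences of equal number, with variance information shared across probe sets. They cover these cultures only. Messenger RNA was measured on Affymetrix Rat 230A arrays, 1 per culture, and the comparison asks how dexamethasone changed the receptor transcripts.

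Acinar cells release digestive enzymes when hormones and neurotransmitters bind receptors on their surface. The receptors for cholecystokinin, gastrin, acetylcholine, gastrin-releasing peptide and substance P couple mainly to the G protein Gq, which activates phospholipase C and releases calcium from stores. The receptors for secretin, vasoactive intestinal peptide and pituitary adenylate cyclase-activating polypeptide (PACAP) belong to another receptor family and couple mainly to Gs, which raises cyclic AMP. Receptor kinases, arrestins and RGS proteins then end the signal. AR42J cells are widely used to study this secretion because they respond to such agonists.

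Values are MAS5 signals, which are scaled within each array and are on a linear scale. Each array measured RNA of a whole culture, so fewer cells of a type and less RNA per cell cannot be told apart. Changes are given on the log2 scale as dexamethasone minus control ± SE. They come from a limma fit, and p-values were adjusted over all 9520 probe sets tested by the Benjamini-Hochberg method. The background level of an array is the highest signal among 27 probe sets for Bacillus subtilis genes. It was 83.7 to 115.9 on dexamethasone arrays and 51.7 to 97.3 on control arrays, and these ranges overlapped. Dexamethasone array 3 stood apart from the other treated arrays on the second principal component, at 25.3 against -11.6 and -12.6. Of 18 acinar cell markers, 16 were above background on all 6 arrays.

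With dexamethasone, 1 of the 8 tested receptor probe sets rose, 1 fell and 6 did not pass an adjusted p of 0.05. The probe set that rose was 1 of 2 for Cckbr (1.37-fold), and the one that fell was 1 of 4 for Adcyap1r1 (0.62-fold). Over the whole array 37.1% of probe sets tested were called, 15.9% higher and 21.2% lower, so 2 of 8 is not above the array's own rate. Signals of the groups did not overlap in 1 of the 8, against 49.7% of all probe sets tested. The median log2 change of the 8 was -0.17, beside -0.05 for all probe sets tested. At an unadjusted p under 0.05, 2 were higher and 2 lower. The share of the whole array at that unadjusted p was not counted, here or for the lists below. Such counts are therefore not set against a rate. With no filter on dim probe sets limma called 0 of 15, while 20.9% of all 15866 probe sets were called.

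**Figure D1:**
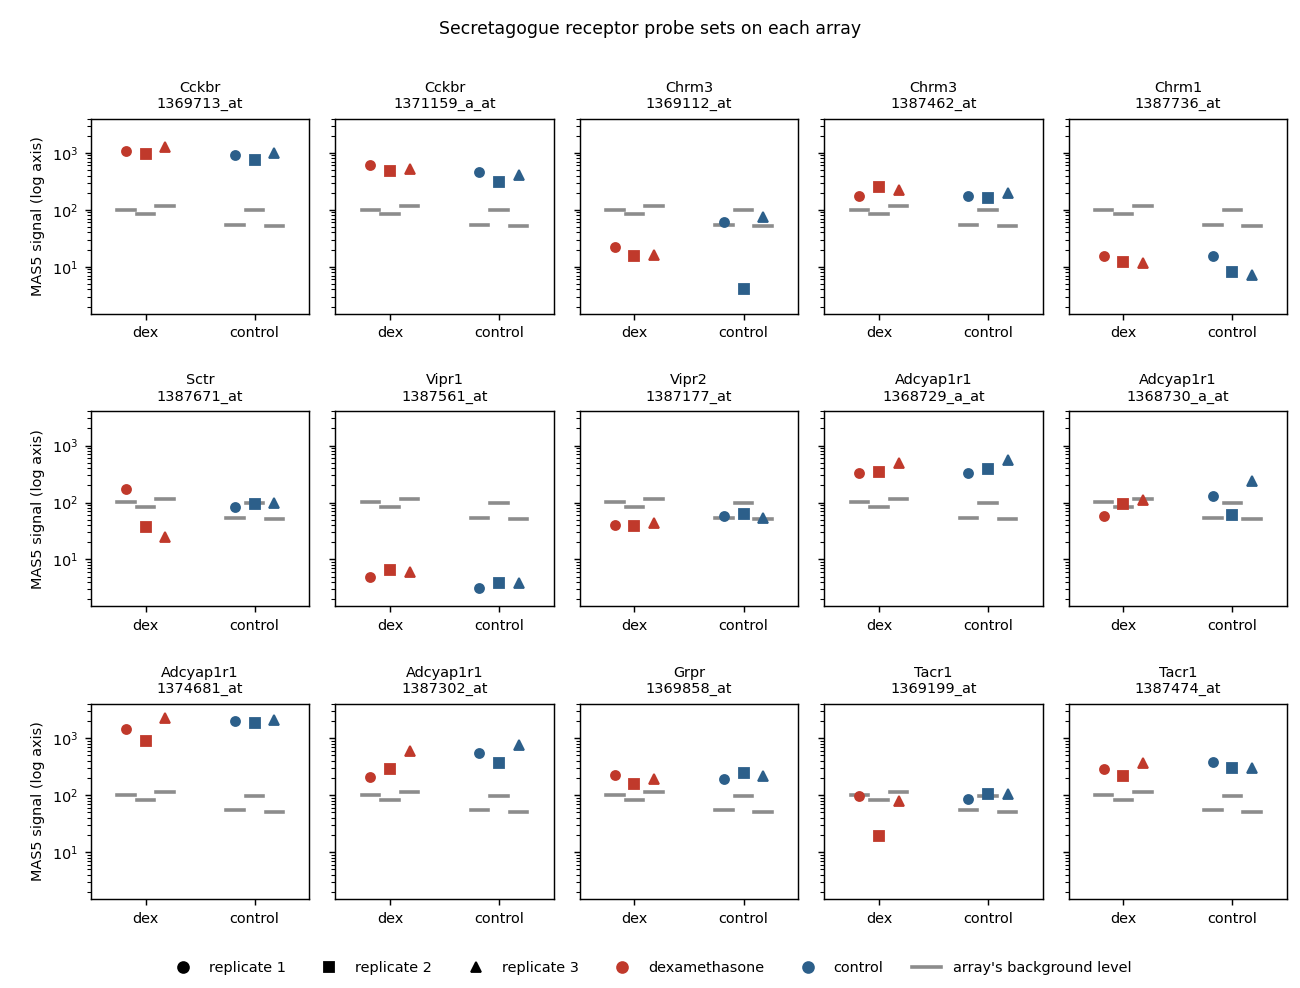
MAS5 signal (log axis) of the 15 receptor probe sets on each dexamethasone array (red, left) and control array (blue, right), with grey bars at each array's background level. Cckbr, 3 of 4 Adcyap1r1 probe sets and Grpr lie above the bars on all 6 arrays, whereas Chrm1 and Vipr1 lie below them on all 6.

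Cckbr, the gastrin receptor that also binds cholecystokinin, was measured by 2 probe sets. Probe set 1371159_a_at had signals of 607.1, 481.4 and 514.1 in dexamethasone cultures 1 to 3, against 467.2, 304.7 and 413.7 in controls 1 to 3. Every treated culture was above every control. It rose by 0.45 ± 0.15 (adjusted p = 0.0471), close to the threshold. That call was lost when any 1 of the 3 replicates was left out (adjusted p = 0.0754 to 0.182), without the replicate block (adjusted p = 0.0819), with no filter (adjusted p = 0.0737), with a filter on background (adjusted p = 0.0528), with no intensity trend (adjusted p = 0.0522) and with scaling to the hybridization controls (0.20, adjusted p = 0.356). The other probe set, 1369713_at, had 1076.0, 965.8 and 1284.5 with dexamethasone, against 925.8, 756.2 and 997.1 in controls. The groups overlapped, although the treated culture was above the control of the same number in 3 of 3 cases, by 0.22, 0.35 and 0.37 on the log2 scale. Its log2 change of 0.31 ± 0.13 (95% interval 0.02 to 0.60, adjusted p = 0.0856) did not pass. It passed with 75th percentile centring (0.44, adjusted p = 0.0258) or quantile normalization (0.38, adjusted p = 0.0489), and was 0.07 with scaling to the hybridization controls.

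Chrm3 encodes the muscarinic acetylcholine receptor through which nerves drive acinar secretion. Its tested probe set, 1387462_at, had 172.7, 255.4 and 226.3 with dexamethasone, against 174.5, 161.4 and 198.0 in controls, and was above background on all 6 arrays. The groups overlapped, and treated culture 1 differed little from control 1. The log2 change was 0.28 ± 0.21 (95% interval -0.21 to 0.77, adjusted p = 0.342). The other Chrm3 probe set, 1369112_at, had 22.3, 15.6 and 16.3 with dexamethasone, against 60.8, 4.0 and 74.3 in controls. Only controls 1 and 3 were above background there, and it was too dim to be tested. Chrm1, another muscarinic receptor, was below background on all 6 arrays, at 11.7 to 15.3 with dexamethasone and 7.3 to 15.4 in controls. Its transcript was not detectable with this probe set.

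Grpr, the receptor for gastrin-releasing peptide and for bombesin, had 226.4, 155.5 and 194.8 with dexamethasone, against 194.4, 246.2 and 216.6 in controls. Signals were above background on all 6 arrays and the groups overlapped. The log2 change was -0.20 ± 0.22 (95% interval -0.71 to 0.31, adjusted p = 0.528), and turned to 0.03 without replicate 2. Tacr1, the receptor for substance P, had 292.6, 216.4 and 364.8 on its tested probe set (1387474_at) with dexamethasone, against 376.7, 303.6 and 298.9 in controls. These groups overlapped too, with treated culture 3 above the control of the same number and the others below theirs. The log2 change was -0.19 ± 0.20 (95% interval -0.64 to 0.26, adjusted p = 0.498). The other Tacr1 probe set, 1369199_at, read 98.4, 19.2 and 78.4 with dexamethasone, against 85.5, 105.8 and 103.5 in controls. It was above background on 0 of 3 dexamethasone arrays and on 3 of 3 control arrays. No fold is given for it, because the lower bound of that fold was under 1.

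Adcyap1r1, the PACAP receptor, which can signal through both Gs and Gq, had 4 probe sets. Probe set 1387302_at had 210.8, 288.8 and 608.0 with dexamethasone, against 546.4, 370.7 and 759.7 in controls. Each treated culture was below the control of the same number, by 1.37, 0.36 and 0.32 on the log2 scale, but the groups overlapped, and replicate 3 was the highest in both. It fell by 0.69 ± 0.22 (95% interval -1.19 to -0.18, adjusted p = 0.0382). The call was lost without replicate 1 (-0.34, adjusted p = 0.208), without replicate 2 (-0.85, adjusted p = 0.0645), without the replicate block (adjusted p = 0.177), with no filter (adjusted p = 0.0812), with no intensity trend (adjusted p = 0.0598), with 75th percentile centring (-0.56, adjusted p = 0.0762) and with quantile normalization (-0.56, adjusted p = 0.0779). It was kept without replicate 3, which holds the array that stood apart (-0.87, adjusted p = 0.00319). In that fit, on fewer arrays, adjusted p-values were far smaller for some other genes too, at 4.9e-32 against 1.0e-05 for Rgs2. They are not read as a measure of strength.

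Probe set 1374681_at of Adcyap1r1 had 1430.2, 893.7 and 2225.5 with dexamethasone, against 1992.4, 1841.1 and 2094.6 in controls. Treated cultures 1 and 2 were below all controls, and treated culture 3, the array that stood apart, was above all of them. The log2 change was -0.48 ± 0.19 (adjusted p = 0.0833) over all 6 arrays, -0.76 without replicate 3 (adjusted p = 0.000319) and -0.20 without replicate 2. The p-value without replicate 3 is again not read as a measure of strength. This probe set also passed with scaling to the hybridization controls (-0.72, adjusted p = 0.0139). The probe sets 1368729_a_at and 1368730_a_at share the suffix of probe sets that can detect several transcripts of 1 gene. The first had 324.0, 340.0 and 488.4 with dexamethasone, against 335.1, 391.0 and 564.4 in controls, and its log2 change was -0.15 ± 0.15 (95% interval -0.50 to 0.19, adjusted p = 0.471). The second had 58.6, 92.7 and 112.6 with dexamethasone, against 129.9, 60.9 and 234.9 in controls, was above background on 1 treated and 2 control arrays, and was too dim to be tested. Each of the 4 had a lower mean signal with dexamethasone, but the size of the difference varied among them. Whether the probe sets saw different splice forms was not tested.

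Sctr, the secretin receptor, had 170.0, 37.4 and 24.6 with dexamethasone, against 82.8, 96.0 and 96.1 in controls. Only 1 of 3 treated arrays and 2 of 3 control arrays were above background, and treated culture 1 was above every control while the other two were below them. Vipr2, one of the receptors shared by vasoactive intestinal peptide and PACAP, had 40.6, 39.2 and 43.3 with dexamethasone, against 57.0, 61.7 and 52.6 in controls. The groups did not overlap, but no treated array and only 2 control arrays were above background. Vipr1, the other such receptor, was below background on all 6 arrays, at 4.9 to 6.6 with dexamethasone and 3.2 to 3.9 in controls. These 3 probe sets were too dim for the filter. In the fit with no filter their adjusted p-values were 0.42 for Sctr, 0.422 for Vipr2 and 0.387 for Vipr1, with 95% intervals of the log2 change of -2.14 to 0.62, -1.34 to 0.39 and -0.48 to 1.85. A fall by 1 on the log2 scale lies inside the intervals of Sctr and Vipr2, and a rise by 1 inside that of Vipr1, so changes of that size could not be told from none on these arrays.

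**Figure D2:**
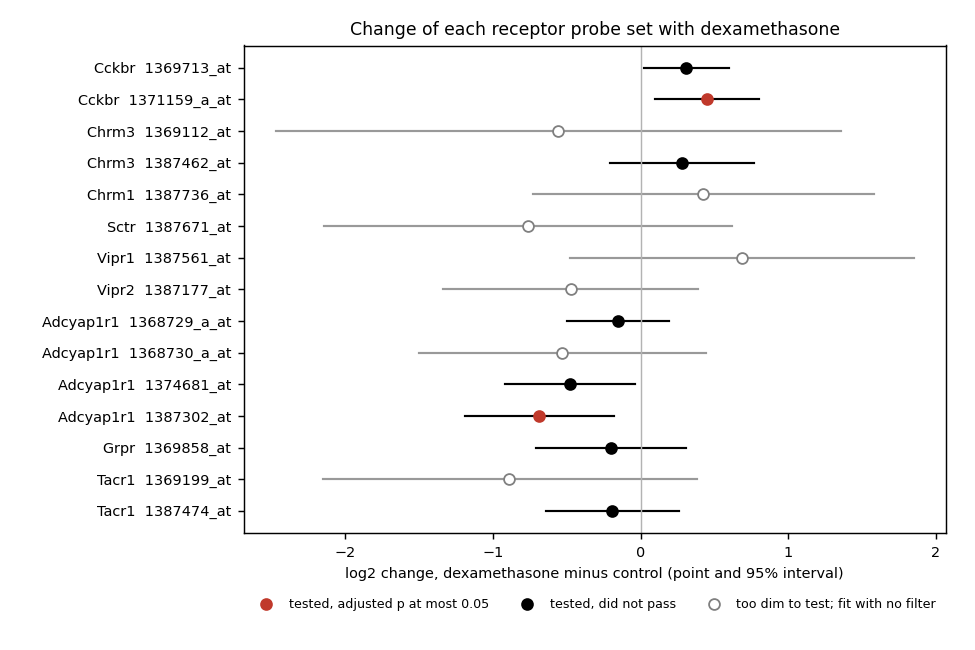
Log2 change (dexamethasone minus control, point and 95% interval) of each receptor probe set. Red points passed an adjusted p of 0.05 (Cckbr 1371159_a_at at 0.45, Adcyap1r1 1387302_at at -0.69), black points were tested and did not pass, and open points come from the fit with no filter, where intervals are wide.

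Other scalings shifted the changes. Over all probe sets tested the median was -0.05 (log2) as deposited, 0.08 with 75th percentile centring, 0.01 with quantile normalization and -0.29 with scaling to the hybridization controls. Calls over the array were 1512 higher and 2019 lower as deposited, 2037 higher and 1503 lower with 75th percentile centring, and 778 higher and 3257 lower with the hybridization controls. Relative to the median of all probe sets, the receptor median was -0.12 as deposited, with 75th percentile centring and with the hybridization controls, and -0.05 with quantile normalization. It was -0.23 with no filter and 0.03 without replicate 2, so leaving out 1 replicate turned its sign. The Cckbr changes stayed positive and the Adcyap1r1 changes negative in all 11 alternatives, but which of them passed varied.

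**Figure D3:**
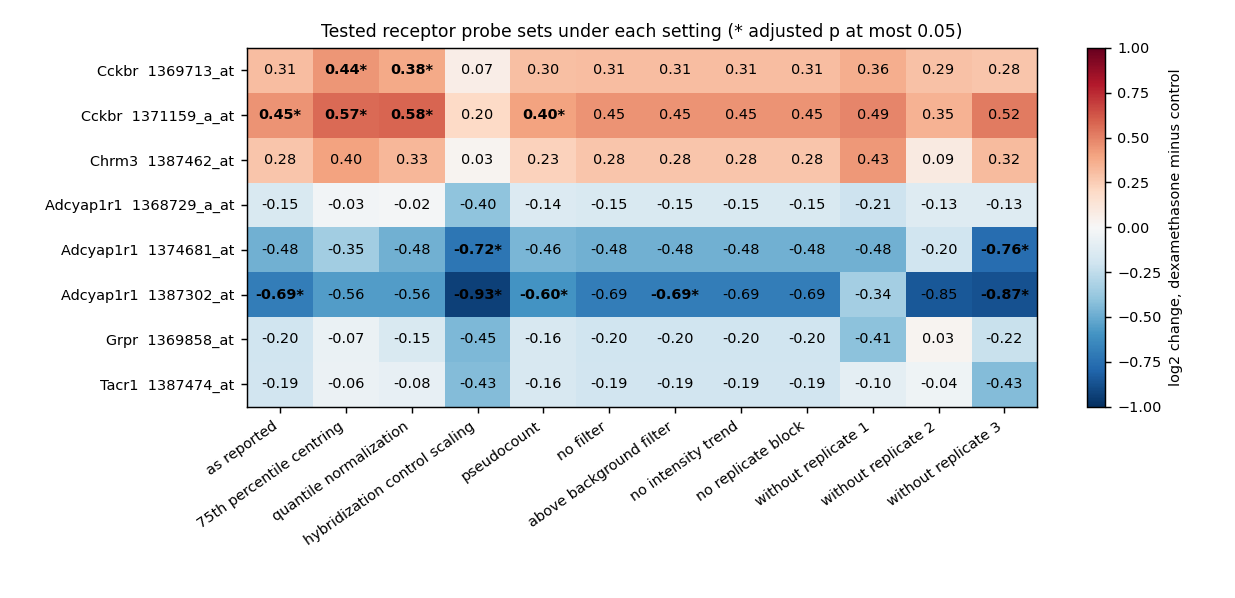
Log2 change (dexamethasone minus control) of the 8 tested receptor probe sets as reported and under 11 alternatives, with an asterisk where the adjusted p was at most 0.05. Both Cckbr probe sets pass with 75th percentile centring and quantile normalization, both Adcyap1r1 probe sets 1374681_at and 1387302_at pass with hybridization control scaling and without replicate 3, and Chrm3, Grpr and Tacr1 pass in none.

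One receptor probe set, Adcyap1r1 1374681_at, was taken for a search of like patterns because it had the highest mean log2 signal of the 15. Among 8063 tested probe sets of other named genes, those whose log2 signals followed it most closely over the 6 arrays were Pnisr (Pearson r = 0.992), Arsa (0.990) and Rnf167 (0.985). All 6 arrays share the treatment contrast and the high treated replicate 3, so these values are a description only. None of the 3 passed the test for treatment, with adjusted p-values of 0.0878, 0.357 and 0.347.

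Promoter windows of 8 of the 9 receptor genes were held in the RefSeq table of the rat build GRCr8, each 250 bases before to 50 after the start. They were searched on both strands for the glucocorticoid response element, written as AGAACA followed after any 3 bases by TGTTCT, and for AGAACA alone, which is contained in it. None of the 8 held either string. Of all 33469 windows of that length, 0.0149% held the full string and 20.7% held AGAACA. The windows of Cckbr (chr1:169183328-169183627, plus strand) and Adcyap1r1 (chr4:85923921-85924220, plus strand) were among the 8. A response element further from the start would not be seen in these windows.

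Of the ligand genes of these receptors and genes of acetylcholine supply or breakdown, 11 were on the array and 9 were too dim to test, 4 of them below background on all 6 arrays. Limma called 1 higher and 0 lower among the 2 tested, with the same counts at an unadjusted p under 0.05. At the adjusted p, 17.0% of all genes tested were called higher and 21.4% lower. Sct, which encodes secretin, had 425.0, 357.6 and 333.7 with dexamethasone, against 208.1, 314.0 and 219.8 in controls. Each treated culture was above each control, and Sct rose by 0.61 ± 0.20 (adjusted p = 0.0415). This call was lost with scaling to the hybridization controls (0.36, adjusted p = 0.148), with no filter (adjusted p = 0.0858) and without replicate 1 (0.39, adjusted p = 0.237) or replicate 3 (adjusted p = 0.0546). Cck, the cholecystokinin gene, had 315.7, 216.5 and 430.9 with dexamethasone, against 295.3, 291.8 and 235.3 in controls. Its groups overlapped and it did not pass (0.18 ± 0.24, adjusted p = 0.604).

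Other receptors of the same families, among them the remaining muscarinic and tachykinin receptors and the glucagon and secretin family, were described together with the RAMP proteins that accompany some of them. Of 18 on the array, 9 were tested and limma called 0, beside 17.0% higher and 21.4% lower over all genes tested. At an unadjusted p under 0.05, 2 were higher and 0 lower, with no share over all genes counted at that threshold. Their median log2 change was 0.03, beside -0.04 for all genes tested. With 75th percentile centring or quantile normalization 3 were called higher, and with scaling to the hybridization controls 1 was called lower.

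The Gq, phospholipase C and calcium branch had 32 tested genes, of which 9 fell, 0 rose and 23 did not pass, beside 21.4% lower and 17.0% higher over all genes tested. At an unadjusted p under 0.05, 6 were higher and 11 lower, with no share over all genes counted at that threshold. The median was -0.19, against -0.04 for all genes tested. It was -0.06 with 75th percentile centring, -0.12 with quantile normalization and -0.43 with scaling to the hybridization controls. The medians of all genes were 0.08, 0.01 and -0.29 there. With no filter the median of the branch was -0.00, against 0.03 for all genes. Under the 75th percentile, quantile and hybridization control scalings the calls were 6, 5 and 0 higher, and 15 were lower with the hybridization controls. Marcks, a membrane protein released by protein kinase C phosphorylation, had 753.3, 731.2 and 867.5 with dexamethasone, against 1921.1, 1803.1 and 2073.6 in controls, and fell by 1.30 ± 0.12 (adjusted p = 6.7e-05). Its 4 other tested probe sets fell as well, by 0.63 to 1.93. Plcb1, one of the phospholipases C that Gq activates, had 340.2, 410.9 and 508.1 with dexamethasone, against 927.0, 648.4 and 820.4 in controls. The groups did not overlap, and Plcb1 fell by 0.93 ± 0.18 (adjusted p = 0.00463). Of its relatives, named after their values were seen, Plcb4 did not pass (0.31 ± 0.22, adjusted p = 0.303), and Plcb2 and Plcb3 were too dim to test.

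Dgkz, a kinase that removes diacylglycerol, fell by 0.86 ± 0.20 (193.9 ± 44.6 with dexamethasone, 345.9 ± 21.9 in controls, SD, adjusted p = 0.00944). Atp2c1, a calcium pump of the Golgi, fell by 0.81 ± 0.17 (293.9 ± 38.4 with dexamethasone, 514.7 ± 42.3 in controls, adjusted p = 0.00579), while its 2 other probe sets were too dim to test. The other 5 genes that fell, named after their values were seen, were Plcg1, Camk2g, Atp2b1, Ppp3ca and Calm2, by 0.36 to 0.77. A second tested probe set of Ppp3ca did not pass (-0.17 ± 0.14, adjusted p = 0.371). The inositol trisphosphate receptors Itpr1 (-0.04 ± 0.17) and Itpr2 (0.16 ± 0.14), the channels that release stored calcium, did not pass. Itpr3 of the same family was too dim to test. The calcium pump Atp2a2 that refills the store did not pass either (0.24 ± 0.10, adjusted p = 0.0987). Gnaq, which encodes Gq itself, was too dim to test, and the related Gna11 did not pass (-0.39 ± 0.16, adjusted p = 0.0929). Itpr1, Itpr2, Itpr3, Atp2a2, Gnaq and Gna11 were also named after their values were seen.

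**Figure D4:**
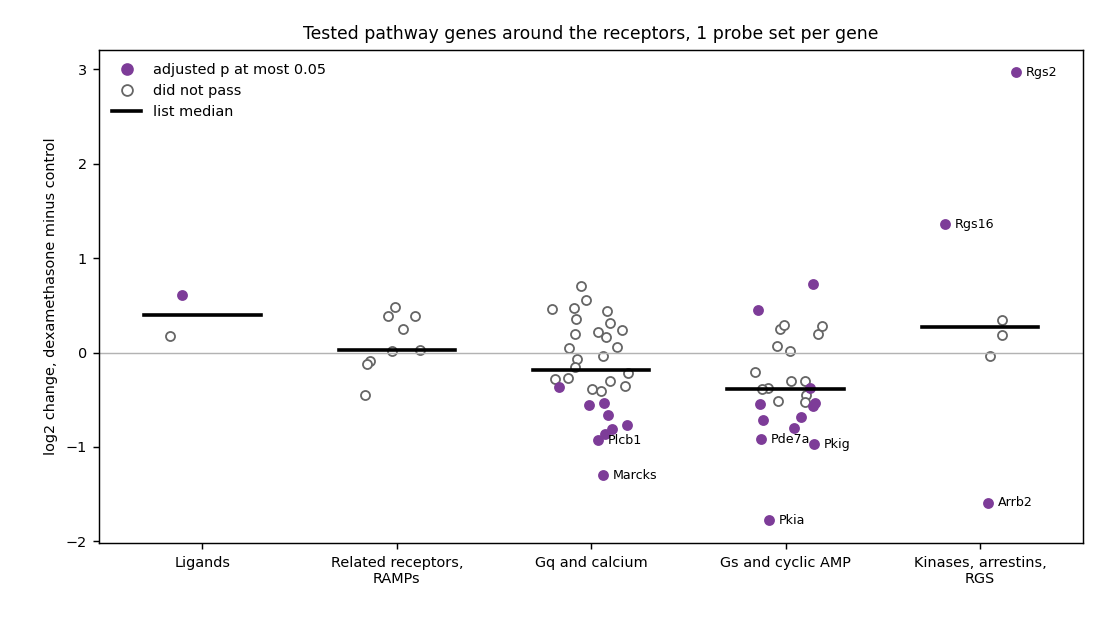
Log2 change (dexamethasone minus control) of tested genes in 5 lists around the receptors, 1 point per gene, filled where the adjusted p was at most 0.05, with a bar at each list's median (0.39, 0.03, -0.19, -0.39 and 0.27 from left to right). Rgs2 and Rgs16 lie at the top of the rightmost list and Arrb2 at its bottom.

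In the Gs and cyclic AMP branch, 10 of 26 tested genes fell, 2 rose and 14 did not pass, beside 21.4% lower and 17.0% higher over all genes tested. Without replicate 2 the count of genes that fell was 6, and with scaling to the hybridization controls it was 17, with 0 higher. At an unadjusted p under 0.05, 2 were higher and 13 lower, with no share over all genes counted at that threshold. The median was -0.39, and -0.26, -0.34 and -0.63 with 75th percentile centring, quantile normalization and scaling to the hybridization controls. The medians of all genes were -0.04, 0.08, 0.01 and -0.29 in the same order. With no filter the median of the branch was -0.23, against 0.03 for all genes. Both protein inhibitors of cyclic AMP-dependent protein kinase that were tested were lower. Pkia had 124.3, 80.4 and 90.6 with dexamethasone, of which 1 was above background, against 345.2, 267.4 and 397.2 in controls. Its treated signals were all under the filter signal of 147.6, so it was tested because of its control signals, and its log2 change of -1.78 ± 0.22 (adjusted p = 0.000333) rests on treated signals near background. Pkig had 919.3, 1179.4 and 859.9 with dexamethasone, against 1637.9, 1892.2 and 2251.6 in controls, and fell by 0.97 ± 0.16 (adjusted p = 0.00156). Among the phosphodiesterases that break cyclic AMP down, Pde7a fell by 0.92 ± 0.19 (152.7 ± 16.1 with dexamethasone, 287.4 ± 13.7 in controls, adjusted p = 0.00547) and Pde3b by 0.80 ± 0.18 (323.0 ± 28.0 with dexamethasone, 568.1 ± 96.1 in controls, adjusted p = 0.00789). The call of Pde3b was lost without replicate 1 (-0.64, adjusted p = 0.0539).

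The risers of this branch were Akap1, an anchor of the kinase on mitochondria, and Prkar2a, one of its regulatory subunits. Akap1 had 1165.9, 694.3 and 1056.6 with dexamethasone, against 494.3, 735.0 and 519.0 in controls, with overlapping groups, and rose by 0.73 ± 0.24 (adjusted p = 0.0387). The second Akap1 probe set missed the threshold (0.43 ± 0.31, adjusted p = 0.302), and the call was lost with scaling to the hybridization controls (adjusted p = 0.112), with no filter (adjusted p = 0.0832), with no intensity trend (adjusted p = 0.0712) and without replicate 1 (0.47, adjusted p = 0.221). Prkar2a rose by 0.45 ± 0.13 on 1 of its 3 probe sets (adjusted p = 0.0243), a call lost with scaling to the hybridization controls (0.21, adjusted p = 0.305), without replicate 2 (adjusted p = 0.138) and without replicate 3 (adjusted p = 0.0516). Named after their values were seen, the other 6 that fell were Crtc3, Prkar2b, Prkacb, Akap8, Adcy6 and Gnas, by 0.38 to 0.71. A second tested probe set did not pass for Adcy6 (-0.42 ± 0.18, adjusted p = 0.102) or for Prkacb (-0.17 ± 0.18, adjusted p = 0.484). Gnas encodes Gs. Its probe set 1369897_s_at fell by 0.38 ± 0.10 (adjusted p = 0.014), whereas its other tested probe set had a positive log2 change that did not pass (0.63 ± 0.24, adjusted p = 0.0667).

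Of the receptor kinases, arrestins and RGS proteins, 6 of 21 genes on the array were tested, and 2 rose, 1 fell and 3 did not pass, against the same 17.0% higher and 21.4% lower. Rgs2, which speeds the shut-off of Gq, had 1307.2, 1143.9 and 1544.0 with dexamethasone, against 134.6, 216.1 and 166.5 in controls. No treated culture came near a control, and Rgs2 rose by 2.97 ± 0.20 (adjusted p = 1.0e-05), a 7.81-fold change. The other Rgs2 probe set averaged 601.0 ± 69.7 with dexamethasone and 28.8 ± 16.7 in controls (SD), where all 3 arrays were below background. It was at least 9.21-fold higher (adjusted p in the fit with no filter 0.00031). Rgs16, which acts on Gi and Gq proteins, had 1271.2, 769.0 and 1236.5 with dexamethasone, against 507.1, 373.4 and 379.6 in controls, and rose by 1.36 ± 0.16 (adjusted p = 0.00029). Arrb2, an arrestin that uncouples and internalises receptors, had 192.1, 170.7 and 197.3 with dexamethasone, against 634.9, 477.0 and 577.1 in controls, and fell by 1.59 ± 0.16 (adjusted p = 0.000125). These 3 passed in all 11 alternatives.

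Grk6, a receptor kinase named after its values were seen, was kept from the test by its low treated signals. Its probe set 1368647_at had 16.4, 45.3 and 37.6 with dexamethasone, all below background, against 313.4, 276.4 and 338.9 in controls. That is at least 3.11-fold lower with dexamethasone, with an adjusted p of 0.00124 in the fit with no filter. The other Grk6 probe set was at least 1.58-fold lower (53.3 ± 23.3 with dexamethasone, 156.6 ± 17.1 in controls, adjusted p with no filter 0.0129). Grk2, another receptor kinase and also named after its values were seen, did not pass (-0.04 ± 0.18, adjusted p = 0.876).

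**Figure D5:**
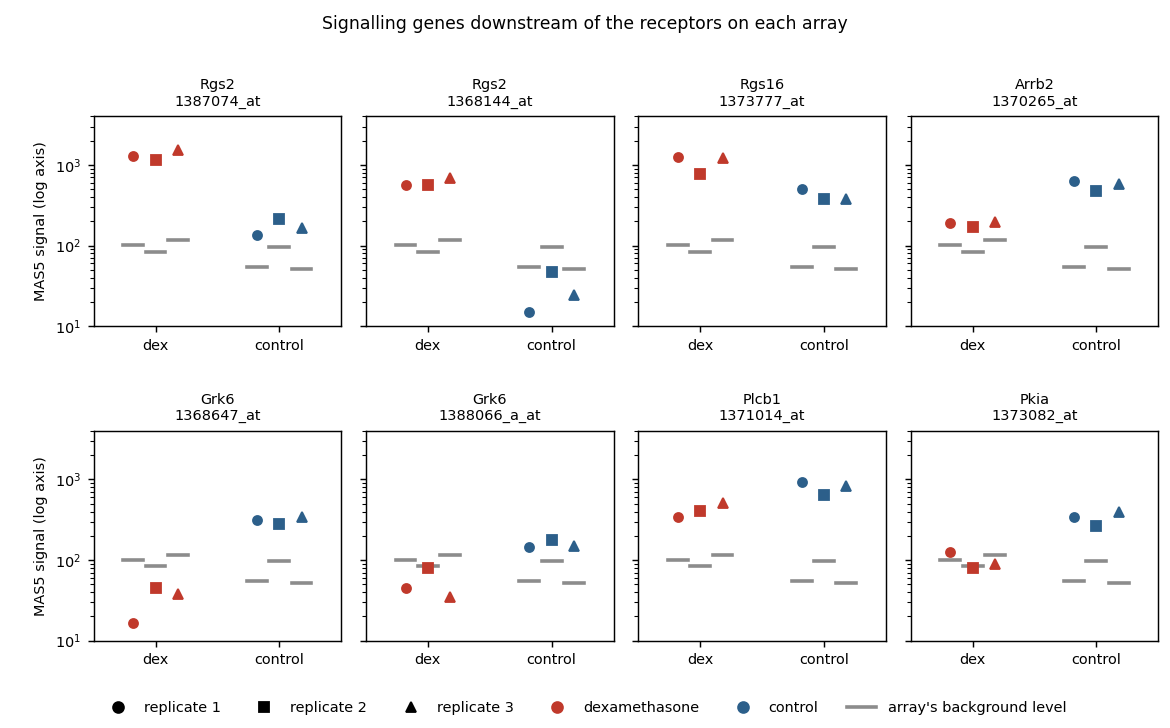
MAS5 signal (log axis) of signalling genes on each dexamethasone array (red, left) and control array (blue, right), with grey bars at each array's background level. Both Rgs2 probe sets and Rgs16 are higher on every dexamethasone array than on any control array, and Arrb2, both Grk6 probe sets, Plcb1 and Pkia are lower on every one.

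Markers of cell types were described as well, beside 17.0% higher and 21.4% lower over all genes tested. Of 9 tested hepatocyte markers 7 rose and 0 fell, with a summed signal of 12068 to 40777 with dexamethasone and 2531 to 6111 in controls. Of the 13 on the array, 8 were above background on all 6 arrays and none was below it on all 6. Of 4 tested duct markers 0 rose and 3 fell, with a summed signal of 1332 to 2564 with dexamethasone and 3941 to 5381 in controls. Of 15 tested acinar markers 11 rose and 0 fell (summed signal 157755 to 177167 with dexamethasone, 92930 to 113490 in controls). The summed signals of each list are over all its markers on the array, also those too dim to test. Of 5 islet and neuroendocrine markers 1 rose and 1 fell (9469 to 13519 with dexamethasone, 11080 to 11709 in controls). Of 3 stromal, endothelial and immune markers 1 rose (1668 to 1934 with dexamethasone, 1484 to 1529 in controls). The part of these shifts in the receptor results was not tested.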

How the data were processed

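The deposited table held MAS5 signal intensity values for 6 arrays, for which the submitters' processing notes name GCOS and MAS5; versions, scaling and masks are not given in the sources used here. Of 15923 probe sets, 57 controls were left out. The 2% trimmed mean was 497.6 to 498.4 on every array, so arrays were already scaled. Values were taken to log2 (4 zeros set to 0.1). Probe sets with a mean log2 signal at or above the 40th percentile (signal 147.6) were kept, 9520 of 15866. They were tested with limma 3.58.1 (R 4.3.3) for treatment with the replicate number as a block, eBayes with an intensity trend, Benjamini-Hochberg adjustment and a threshold of 0.05. The fit was tested on simulated data.

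The design text speaks of independent pairs and the growth protocol of 3 repeats, but neither says that the number marks the pair. Deviations from the group means correlated at -0.095, 0.112 and 0.211 for same-numbered arrays 1, 2 and 3. For treated and control arrays of different numbers they correlated at -0.248 to 0.175, so the ranges overlapped. The number of arrays limits the precision.

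Symbols came from the platform annotation: 12783 probe sets had 1 symbol, 312 had several and 2771 had none, and 12748 matched RefSeq by gene identifier. Lists used 1 probe set a gene, the one with the highest mean log2 signal. Named genes were all receptors, tested ligands, and the 4 largest rises and falls past the threshold in each other list. A fold of a probe set not above background in 1 group is given as at least the ratio to that group's background level. The receptors and lists were chosen with earlier results of these data known. Alternatives were other scalings, filters, a pseudocount of 50, no trend, no block, any probe set of a gene and each replicate left out.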

Additional observations from a re-analysis of the deposited data

How the results depend on the processing

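Of 88 values of the 8 tested receptor probe sets under 11 alternatives, 69 kept their direction and side of the threshold or stayed uncalled, 15 lost a call, 4 gained one and 0 turned a called direction. For 15 other named genes, 153 of 165 values kept their call and 12 lost it. With 1 receptor probe set called higher and 1 lower as reported, 75th percentile centring and quantile normalization each gave 2 higher and 0 lower, scaling to the hybridization controls 0 higher and 2 lower, and the fits with no filter, without the intensity trend and with no replicate block each 0 higher and 0 lower. The filter on background gave 0 higher. Leaving out each replicate gave 0 to 0 higher and 0 to 2 lower. Without the replicate block both receptor calls were lost, and that of no other named gene. Among related receptors, 0 were called higher or lower as reported, against 3 higher with 75th percentile centring, 3 with quantile normalization and 1 with no intensity trend, and 1 lower with the hybridization controls. In the Gq branch (0 higher, 9 lower) these were 6 higher with 75th percentile centring, 5 with quantile normalization, 3 with no intensity trend, 2 with the pseudocount and 0 to 1 with a replicate left out, and 15 lower with the hybridization controls (6 to 7 with a replicate left out). In the Gs branch (2 higher, 10 lower) 0 were higher with the hybridization controls, 1 without a filter, 1 without the intensity trend and 1 to 2 with a replicate left out, and 17 lower with the hybridization controls (6 to 10 with a replicate left out, the 6 without replicate 2). Of receptor kinases, arrestins and RGS proteins, 2 were lower with the filter on background and 2 with no filter, where more genes were tested. Over all probe sets, 778 were higher and 3257 lower with the hybridization controls (1035 to 1239 and 1434 to 1775 with a replicate left out, which leaves fewer arrays). The cause of the other shifts was not tested. Signal near background limits Sctr, Vipr1, Vipr2, Chrm1 and 1 probe set each of Chrm3, Tacr1 and Adcyap1r1.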
